A study of Mus musculus with 6 samples.

Results

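Nuclear receptors are transcription factors, many of which are switched by small lipophilic ligands such as bile acids, fatty acids, oxysterols, thyroid hormone, retinoids and steroids. The 41 receptor genes described here were chosen by name, each as the row of the deposited table that carries its symbol, and all 41 were among the 57180 genes listed. They cover most of the mouse family.

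RNA was sequenced from primary hepatocytes of male mice in 6 libraries. Of these, 3 are titled LOXP and 3 are titled KO, and the KO group carries the label STINGLKO here. LOXP mice are the floxed controls, and STINGLKO mice were bred by bringing an Albumin-Cre transgene, whose albumin promoter drives the recombinase in hepatocytes, onto the floxed STING background. Cells of both groups received 0.1 mM palmitate (PA), a saturated fatty acid, for 24 h. The medium in which hepatocytes were seeded held 10% fetal bovine serum and 0.1 μM dexamethasone, which is itself a ligand of the glucocorticoid receptor. Whether this medium was kept during palmitate is not stated in the sources used here. No library without palmitate, or known to come from cells seeded without dexamethasone, is part of the comparison. The receptors are therefore compared between genotypes only under these conditions. The labels do not say whether the 3 libraries of a group came from separate mice, so p-values measure the spread between these libraries. Animals of the study were males on the C57BL/6 background, aged 8 to 10 weeks.

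The targeted gene, Sting1, had 19, 16 and 23 counts in LOXP and 24, 23 and 15 counts in STINGLKO, a log2 fold change of -0.08 with a standard error (SE) of 0.298 (adjusted p = 0.883). Its counts did not separate the groups, so the second group is called the libraries labelled STINGLKO. The paper reports from a separate RT-PCR measurement that hepatocytes express the gene and that knockout cells lost it. The counts here, few and taken over the gene as a unit, did not show that loss at the level of the whole gene. They do not decide whether a part of the gene was deleted in these libraries. Counted reads per library ran from 14726983 to 18536985, and the first principal component, which held 50.5% of the variance, separated the groups. Albumin stood at 7106 FPKM over all libraries, and 8 of 9 hepatocyte markers were lower in the libraries labelled STINGLKO, with a summed level of 30619 to 33870 CPM (counts scaled to the size of the library) in LOXP and 22843 to 23628 CPM in the other group. Beside the marker counts of this paragraph stand the shares over all genes tested, 11.6% lower and 11.5% higher. Markers of other cells were present at lower sums. Macrophage markers summed to 149 to 166 CPM in LOXP and 96.3 to 115 CPM in the libraries labelled STINGLKO (2 of 11 tested lower), endothelial markers to 213 to 247 and 197 to 216 CPM (1 of 11 lower), stellate and fibroblast markers to 109 to 120 and 110 to 119 CPM (0 of 11 changed), and cholangiocyte markers to 293 to 351 and 153 to 182 CPM (3 of 5 lower, 1 higher). Lymphocyte and neutrophil markers summed to at most 0.568 CPM, and 9 of 12 were at 0 counts in every library. Of the most abundant markers outside hepatocytes, Cd68 (macrophages), Cldn4 and Sox9 (cholangiocytes) were lower by -0.87, -1.03 and -0.87 in log2 fold change, and Lyz2, Cdh5, Lyve1, Ecm1 and Sparc did not pass the test. The part of these shifts in the receptor results was not tested, and in RNA from whole cultures fewer cells of a type and less RNA per cell cannot be told apart.

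Receptor genes differ in how their transcription is driven, and the start regions of those to which the results below return most are shown first. Windows of 300 bases around annotated starts came from RefSeq on build GRCm38.p6, which is not the build of the deposited table (GRCm39), and 38 of the 41 receptors had at least 1 window, 59 windows in all. Capitals mark matches, on either strand, to 4 short motifs that were chosen with these sequences in view: AGGTCA, the core element read by many nuclear receptors, GTTAAT, the core element read by HNF1 factors, TGACG, the core of the cAMP response element, and CACGTG, the E-box. Among all 32851 windows of this length, 16.3% held AGGTCA, 7.10% GTTAAT, 20.8% TGACG and 7.15% CACGTG, and among the 59 receptor windows the shares were 18.6%, 10.2%, 25.4% and 8.47%. Hnf4a has 2 windows, of which the downstream one is shown because it held a pair of HNF1 elements, Nr1h4 and Nr5a2 are shown because each held 1 HNF1 element and 1 receptor element, and Nr4a1 and Nr4a2 are shown because each held 4 TGACG cores. A match is a description of the letters and not evidence of a bound factor.

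Hnf4a, downstream start, chr2:163546905-163547204, plus strand: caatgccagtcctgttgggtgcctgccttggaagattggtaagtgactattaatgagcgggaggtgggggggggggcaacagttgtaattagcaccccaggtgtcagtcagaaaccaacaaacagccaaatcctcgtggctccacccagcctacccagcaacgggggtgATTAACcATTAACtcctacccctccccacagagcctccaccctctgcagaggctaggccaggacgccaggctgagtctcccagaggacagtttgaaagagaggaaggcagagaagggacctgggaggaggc
Nr1h4, chr10:89506609-89506908, minus strand: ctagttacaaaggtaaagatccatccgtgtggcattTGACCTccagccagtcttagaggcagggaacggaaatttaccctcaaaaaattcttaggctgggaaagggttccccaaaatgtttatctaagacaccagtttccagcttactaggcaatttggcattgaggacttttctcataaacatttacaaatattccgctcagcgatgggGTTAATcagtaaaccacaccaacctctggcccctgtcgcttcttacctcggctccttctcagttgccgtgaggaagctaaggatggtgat
Nr5a2, chr1:136960399-136960698, minus strand: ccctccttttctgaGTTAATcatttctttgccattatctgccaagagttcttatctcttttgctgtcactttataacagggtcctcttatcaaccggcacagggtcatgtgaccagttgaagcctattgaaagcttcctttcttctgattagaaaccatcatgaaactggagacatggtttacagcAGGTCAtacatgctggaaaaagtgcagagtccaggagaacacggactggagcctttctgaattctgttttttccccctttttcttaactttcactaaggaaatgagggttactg
Nr4a1, chr15:101266596-101266895, plus strand: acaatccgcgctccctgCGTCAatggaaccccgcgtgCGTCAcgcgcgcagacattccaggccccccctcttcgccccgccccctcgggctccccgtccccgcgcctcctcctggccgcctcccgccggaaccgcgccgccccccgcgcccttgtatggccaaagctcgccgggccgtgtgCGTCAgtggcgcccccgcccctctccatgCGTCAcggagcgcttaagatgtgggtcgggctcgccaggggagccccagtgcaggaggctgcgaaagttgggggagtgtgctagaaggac
Nr4a2, chr2:57123954-57124253, minus strand: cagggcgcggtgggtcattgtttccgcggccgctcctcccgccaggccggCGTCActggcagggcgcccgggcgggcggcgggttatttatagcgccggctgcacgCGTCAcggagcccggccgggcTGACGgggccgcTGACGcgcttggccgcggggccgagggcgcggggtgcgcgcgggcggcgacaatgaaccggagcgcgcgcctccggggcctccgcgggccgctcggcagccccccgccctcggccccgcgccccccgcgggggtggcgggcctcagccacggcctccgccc

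The family was mostly expressed. Of the 41 genes, 28 had a mean of more than 1 FPKM (reads scaled to gene length and to the counted reads of the library, a level that can be compared between genes) in at least 1 group, and 25 were above 1 FPKM in every library. Only 5 had a mean above 10 FPKM over all libraries: Hnf4a, Rxra, Nr2f6, Nr1d1 and Esrra. Another 23 exceeded 1 FPKM in at least 1 group and averaged under 10 FPKM over all libraries. A further 5 (Rarb, Nr4a2, Nr3c2, Nr1i3 and Esr1) averaged under 1 FPKM in both groups but held enough counts to be tested, and 8 did not. The 4 highest genes together took 43.3% to 45.9% of the summed receptor FPKM of a library. Summed over the 41 genes, LOXP libraries held 193, 193 and 206 FPKM and the libraries labelled STINGLKO held 169, 173 and 181 FPKM, so the sums did not overlap. The most abundant genes weigh most in these sums, and Hnf4a alone had means of 34.1 FPKM in LOXP and 23.2 FPKM in the other group. Of the 33 genes tested, 10 had a log2 fold change above 0.

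The 8 untested genes were close to the limit of detection at this depth. Nr2f1 (COUP-TFI) had 28 counts over the 6 libraries, Esrrb 25, Esrrg 16, Hnf4g 15 and the vitamin D receptor Vdr 13, and Nr4a3 had 5. None of these reached 0.1 FPKM in any library, the highest value being 0.0972 FPKM. Rorb and the progesterone receptor Pgr were at 0 counts in all 6 libraries, and a count of 0 allows for up to 3 counts in each. A level below this limit was not detectable at this depth.

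**Figure D1:**
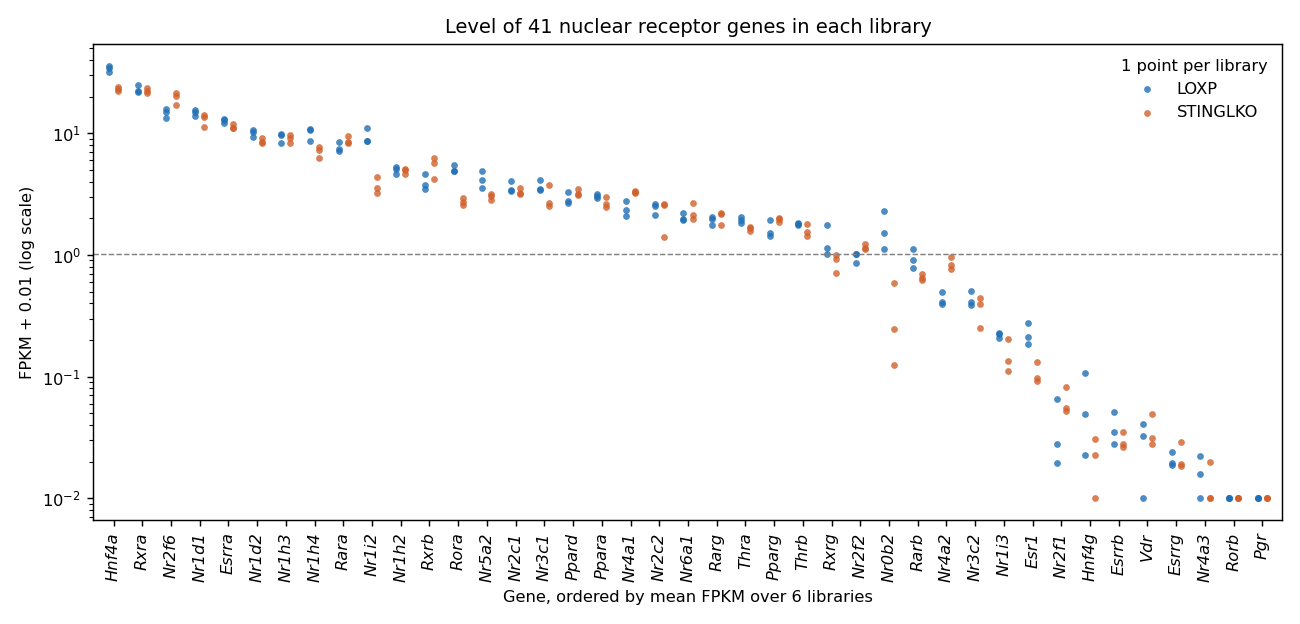
FPKM (plus 0.01, log scale) of the 41 receptor genes in each of the 6 libraries, ordered by mean level, with LOXP in blue and the libraries labelled STINGLKO in orange and the dashed line at 1 FPKM. Hnf4a leads, 28 genes exceed 1 FPKM on average in a group, the values of Nr1i2, Rora, Nr0b2 and Esr1 separate visibly between groups, and Rorb and Pgr lie on the floor at 0.

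Each gene was compared between the groups with edgeR's quasi-likelihood test, p-values were adjusted by the Benjamini-Hochberg method across 14151 genes, and a gene is said to have changed where the adjusted p was under 0.05. Of the 33 receptors tested, 9 (27.3%) were lower in the libraries labelled STINGLKO, against 11.6% of all genes tested, and 3 (9.09%) were higher, against 11.5%. In either direction 12 receptors changed (36.4%), against 23.1% of all genes. The lower genes were Nr0b2, Nr1i2, Esr1, Rora, Hnf4a, Rarb, Nr1h4, Nr5a2 and Nr1d2, and the higher ones were Nr4a2, Nr4a1 and Nr2f6. The median log2 fold change of the 33 was -0.21, against -0.0021 over all genes tested, with 23 receptors below 0 and 10 above. In 16 receptors every value of the libraries labelled STINGLKO lay below every LOXP value (20.3% of all genes), and in 4 every value lay above (20.4% of all genes). All 12 changed genes were among these 20. By the stricter criteria of the study (an absolute log2 fold change above 1, adjusted p under 0.05 and a mean above 1 FPKM in a group), 2 receptors were lower, Nr1i2 and Nr0b2, where 1.49% of all genes were.

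**Figure D2:**
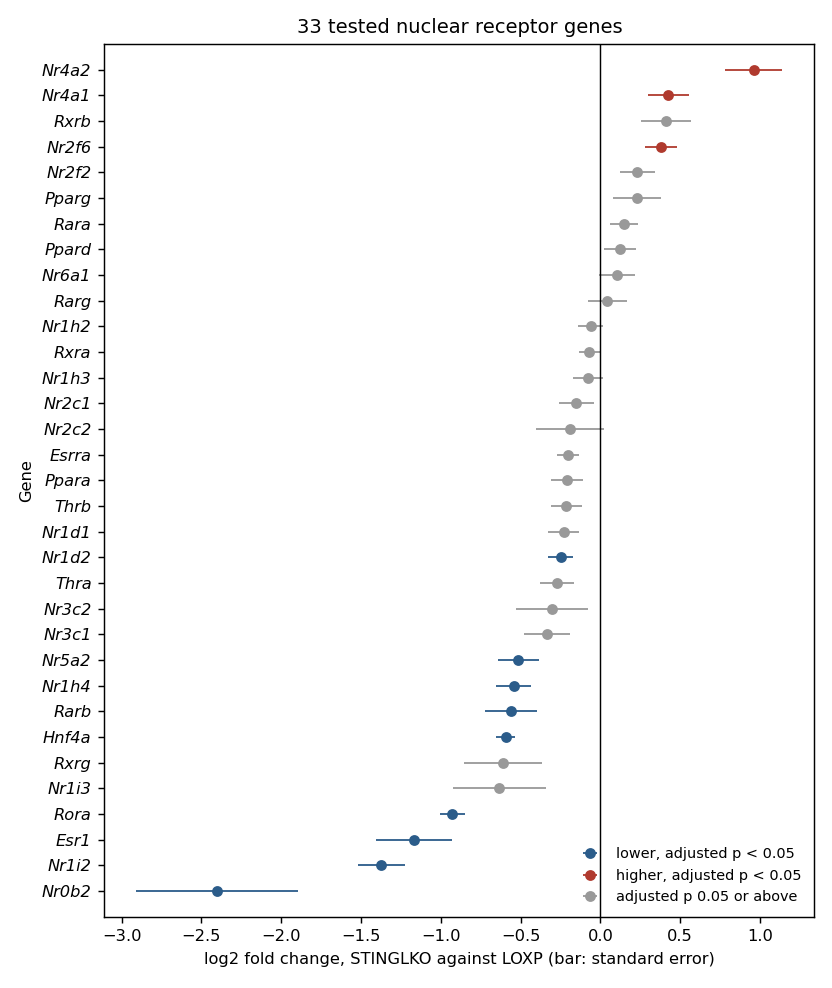
Log2 fold change of the 33 tested receptor genes in the libraries labelled STINGLKO against LOXP, with bars of 1 standard error (n = 3 libraries per group) and colour by the test. The 9 lower genes run from -2.40 (Nr0b2) to -0.25 (Nr1d2) and the 3 higher genes from 0.38 (Nr2f6) to 0.96 (Nr4a2).

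HNF4A, the receptor most abundant here, is a constitutively active factor that maintains the hepatocyte programme. Hnf4a (chr2:163348728-163414830, GRCm39) stood at 283, 272 and 299.8 CPM in LOXP and at 196, 182 and 188 CPM in the libraries labelled STINGLKO. The groups lay well apart, and in level per length the mean went from 34.1 ± 2.0 to 23.2 ± 1.02 FPKM (SD, n = 3). Its log2 fold change was -0.59 (SE 0.0582, adjusted p = 3.38e-04). In LOXP it stood above every other receptor, while in the libraries labelled STINGLKO its mean and that of Rxra (22.5 ± 0.884 FPKM) differed by less than their spread. Counts per gene do not separate the transcripts from its upstream and downstream starts. Of 20 genes listed as HNF4A targets, all of them tested, 9 were lower, 2 were higher and 9 did not pass the test, with a median log2 fold change of -0.16. Beside this count and those of the later lists stand the shares over all genes tested, 11.6% lower and 11.5% higher. The glucose transporter gene Slc2a2 was lower by -1.18 (adjusted p = 2.57e-04) and Cyp8b1, the sterol 12α-hydroxylase, by -1.60 (adjusted p = 0.0175). Apoa4, an apolipoprotein gene at 1680 FPKM, was higher by 0.59 (adjusted p = 2.45e-04), and Apoa1, at 1115 FPKM, had a log2 fold change of -0.09 (adjusted p = 0.232). The list therefore held changes in both directions.

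LRH-1 (Nr5a2) works with HNF4A and SHP in the control of bile acid synthesis, and FXR (Nr1h4) is the bile acid receptor that induces SHP (Nr0b2), a receptor without a DNA-binding domain that represses other receptors. All 3 genes were lower in the libraries labelled STINGLKO. Nr1h4 (chr10:89290096-89369447) had 34.6, 28.3 and 33.7 CPM in LOXP and 24.2, 19.7 and 22.6 CPM in the other group, a log2 fold change of -0.54 (SE 0.110, adjusted p = 0.00939). Nr5a2 (chr1:136770309-136888186) had 36.3, 44.8 and 31.5 CPM against 26.5, 27.8 and 24.5 CPM, with the LOXP libraries spread more widely (-0.51, SE 0.127, adjusted p = 0.0214). The groups of both genes did not overlap. Their windows printed above hold 1 receptor element and 1 HNF1 element each, as does a window of Thrb, which did not pass the test, while a second window of Nr5a2 holds neither. Without replicate 1 or replicate 3 of the libraries labelled STINGLKO, the adjusted p of Nr5a2 was 0.0645 or 0.0768.

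Nr0b2 (chr4:133280687-133283847) had the largest fold change of the tested receptors and few reads. It had 20, 25 and 40 counts in LOXP and 2, 5 and 11 counts in the libraries labelled STINGLKO, or 1.64 ± 0.608 and 0.310 ± 0.241 FPKM (SD, n = 3). The log2 fold change was -2.40 (SE 0.507, adjusted p = 0.0113). With counts this low the size of the change is imprecise, and without replicate 2 of the libraries labelled STINGLKO the adjusted p was 0.0503. Without replicate 3 of that group the log2 fold change was -3.16 (adjusted p = 0.0104). The highest value of that group still lay below the lowest LOXP value.

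Genes listed as FXR targets were mostly lower. Of 15 listed, 12 were tested, 10 of them were lower and 1 higher, with a median log2 fold change of -0.61. Nr0b2 itself is 1 of the 10. The list pools genes that FXR induces with genes repressed through SHP, such as Cyp8b1. Its count and median are therefore no measure of receptor output. Baat, which conjugates bile acids to amino acids, was lower by -1.52 (adjusted p = 0.00169). Abcb4, the canalicular phospholipid transporter, was lower by -0.96 (adjusted p = 1.5e-04). The fibrinogen genes Fgg and Fgb, at 126 and 186 FPKM, were lower by -0.74 and -0.59 (adjusted p = 8.81e-05 and 3.84e-04). These members include secreted hepatocyte proteins as well as bile acid genes, and Fgb is also in the hepatocyte marker list above. The 1 higher gene was Abcb11, the bile salt export pump, named here after its value was seen (0.41, adjusted p = 0.00941). Cyp8b1, listed under FXR and HNF4A alike, is normally repressed through SHP. It was lower, as was Nr0b2, and a link between these changes was not tested. Cyp7a1, the rate-limiting enzyme of bile acid synthesis, had 2 counts in all 6 libraries and was not tested.

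PXR (Nr1i2) and CAR (Nr1i3) are the xenobiotic sensors that induce cytochromes P450 and conjugating enzymes. Nr1i2 (chr16:38068685-38115186) stood at 22.0, 22.6 and 28.4 CPM in LOXP and 8.99, 8.20 and 10.96 CPM in the libraries labelled STINGLKO. The highest value of the second group lay below the lowest LOXP value by a wide margin, and the level per length fell from 9.39 ± 1.40 to 3.72 ± 0.604 FPKM (log2 fold change -1.37, SE 0.146, adjusted p = 4.97e-04). Nr1i3, in contrast, was barely present, with 27, 27 and 29 counts against 26, 16 and 18 counts and a mean of 0.175 FPKM over all libraries. Its log2 fold change of -0.63 had an SE of 0.293 and did not pass the test (adjusted p = 0.159). The locus of Nr1i3 overlaps Tomm40l, which took 2005 counts where Nr1i3 took 143, and the strand setting of the counting is not given in the sources used here, so reads of the pair cannot be told apart with certainty.

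Of 24 genes listed as CAR and PXR targets, 19 were tested, 9 were lower, 4 were higher and 6 did not pass the test (median log2 fold change -0.19). Gstm3, a glutathione transferase, was lower by -1.03 (adjusted p = 0.00364) and Alas1, the first enzyme of haem synthesis, by -0.56 (adjusted p = 5.23e-04). The most abundant members went the other way: Gsta1, another glutathione transferase at 213 FPKM, was higher by 0.87 (adjusted p = 2.68e-04), and Aldh1a1, the retinaldehyde dehydrogenase at 199 FPKM, by 0.39 (adjusted p = 0.00318). Cyp3a11 and Cyp2b10, the classical reporters of PXR and CAR in mice, are added after their values were seen and were lower by -0.35 and -0.59 (adjusted p = 0.00247 and 0.00353). Cytochrome and glutathione transferase genes have near-identical relatives, so the split of reads among them is uncertain.

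**Figure D3:**
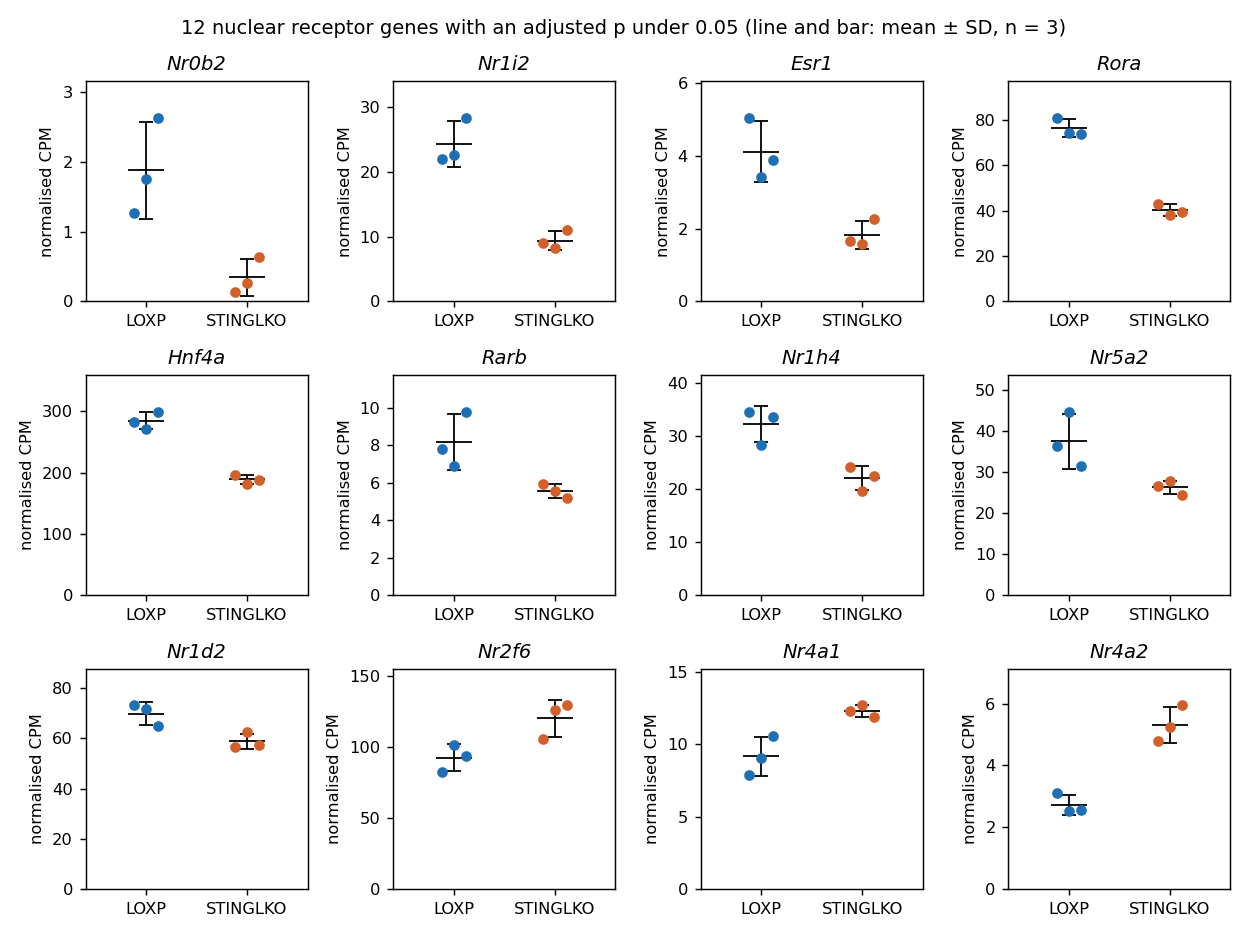
Normalised CPM of the 12 changed receptor genes in each library (n = 3 per group), ordered by log2 fold change, with the mean and SD and every axis from 0. In all 12 panels the 3 points of 1 group lie wholly above the 3 points of the other, and the groups come closest in Nr1d2 (64.9 against 62.4 CPM) and Nr2f6 (101 against 106 CPM).

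Retinoid X receptors are the shared dimer partners of FXR, LXR, PPAR, PXR, CAR and the thyroid, retinoic acid and vitamin D receptors. Rxra, the second most abundant receptor at 22.8 FPKM, had 166, 168 and 185 CPM in LOXP and 159, 174 and 163 CPM in the libraries labelled STINGLKO. The groups overlapped, and the log2 fold change was -0.07 (SE 0.0651, adjusted p = 0.489). Rxrb (4.65 FPKM) had a log2 fold change of 0.41 with an SE of 0.157 (adjusted p = 0.0949), its values running from 36.2 to 47.9 CPM in LOXP and from 42.8 to 64.5 CPM in the other group. Rxrb passed the test without replicate 1 of the libraries labelled STINGLKO (adjusted p = 0.0259) and with DESeq2 (adjusted p = 0.0313). Rxrg, at 1.08 FPKM, had a log2 fold change of -0.61 (SE 0.243, adjusted p = 0.108).

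PPARs are receptors for fatty acids and their derivatives, of which PPARα drives fatty acid oxidation and ketogenesis in liver, and palmitate was present in both groups. None of the 3 genes passed the test. Ppara had 17.9, 18.9 and 19.3 CPM in LOXP and 17.8, 15.9 and 14.8 CPM in the libraries labelled STINGLKO (log2 fold change -0.21, SE 0.100, adjusted p = 0.171). These values do not overlap, though the lowest LOXP and the highest value of the other group nearly touch. Ppard and Pparg, at 3.07 and 1.78 FPKM, had log2 fold changes of 0.12 (SE 0.101, adjusted p = 0.439) and 0.23 (SE 0.150, adjusted p = 0.318).

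PPARα target genes split. All 22 listed genes were tested, 6 were lower, 7 were higher and 9 did not pass the test, with a median log2 fold change of -0.07. Fgf21, a fasting hormone, was lower by -2.07 (adjusted p = 3.11e-04). Cyp4a14, a fatty acid ω-hydroxylase at 172 FPKM, was higher by 0.77 (adjusted p = 4.89e-05), as were Acaa1b, a peroxisomal thiolase (0.86, adjusted p = 2.45e-04), and Plin2, the lipid droplet coat protein gene at 292 FPKM (0.21, adjusted p = 0.0182). The members named here therefore went in both directions, with those of ω-oxidation, peroxisomal oxidation and lipid storage higher.

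LXRα (Nr1h3) and LXRβ (Nr1h2) sense oxysterols and control cholesterol efflux and lipogenesis. Nr1h3 had 50.5, 44.1 and 51.6 CPM in LOXP and 49.7, 47.2 and 41.9 CPM in the libraries labelled STINGLKO, which overlap (log2 fold change -0.08, SE 0.0920, adjusted p = 0.601), and Nr1h2 had a log2 fold change of -0.06 (SE 0.0771, adjusted p = 0.617). Of 13 genes listed as LXR targets, 12 were tested, 3 were lower, 1 was higher and 8 did not pass the test (median 0.03). Fasn, the fatty acid synthase gene, was higher by 1.15 (adjusted p = 9.34e-06), while Scd1, the stearoyl-CoA desaturase gene, was lower by -0.71 (adjusted p = 8.34e-05). Lpcat3, a phospholipid-remodelling enzyme gene at 31.0 FPKM, had a log2 fold change of 0.02 (adjusted p = 0.853). The transporter genes Abca1 and Abcg8, added after their values were seen, were lower by -0.73 and -0.89 (adjusted p = 5.6e-04 and 0.0266). Abcg1 and Abcg5, added likewise, had log2 fold changes of 0.17 and 0.04 (adjusted p = 0.602 and 0.943).

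RORα (Rora) activates and REV-ERBα and REV-ERBβ (Nr1d1, Nr1d2) repress through the same elements in the circadian clock. Rora (chr9:68561068-69295528) had the smallest adjusted p of all the receptors. It stood at 81.1, 74.4 and 73.9 CPM in LOXP and 43.1, 38.2 and 39.4 CPM in the libraries labelled STINGLKO. The spread within a group was small beside the gap, and the log2 fold change was -0.93 (SE 0.0762, adjusted p = 1.5e-04). Nr1d2 (chr14:4230569-4265642) had 73.2, 71.8 and 64.9 CPM against 56.7, 62.4 and 57.3 CPM, a small difference just past the threshold (-0.25, SE 0.0757, adjusted p = 0.0458). Leaving out any library but LOXP replicate 3 took it past 0.05, with adjusted p from 0.0613 to 0.135. Nr1d1, at 13.9 FPKM, had 48.8, 56.4 and 52.4 CPM against 39.0, 47.3 and 48.0 CPM, and did not pass the test (-0.23, SE 0.0979, adjusted p = 0.131). The annotated loci of Nr1d1 and Thra overlap, and reads from the overlap cannot be told apart without strand.

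Of 20 clock genes listed, 19 were tested, 5 were lower, 1 was higher and 13 did not pass the test, with a median log2 fold change of -0.25. Rora, Nr1d2 and Nr1d1 are members of both lists. Npas2, a partner of BMAL1, was lower by -0.75 (adjusted p = 0.0131). The repressors Bhlhe40 and Nfil3, the most abundant genes of the list at 37.1 and 29.6 FPKM, had log2 fold changes of -0.02 and 0.02 (adjusted p = 0.837 and 0.883). The times of harvest are not given in the sources used here, so a difference in level and one in phase cannot be told apart.

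Dexamethasone, a ligand of the glucocorticoid receptor (Nr3c1), was in the seeding medium given for the hepatocytes of both groups. Nr3c1 had 70.2, 61.1 and 59.3 CPM in LOXP and 45.3, 43.1 and 62.8 CPM in the libraries labelled STINGLKO. Replicate 3 of that group lay within the LOXP range, and the log2 fold change of -0.34 had an SE of 0.143 (adjusted p = 0.131). Without this replicate the log2 fold change was -0.52 (adjusted p = 0.0133). Of 20 genes listed as glucocorticoid receptor targets, 19 were tested, 9 were lower, 2 were higher and 8 did not pass the test (median -0.31). Pck1, the gluconeogenic enzyme gene, was lower by -3.30 (adjusted p = 0.00162), Igfbp1, which binds insulin-like growth factors, by -1.40 (adjusted p = 8.81e-05), and Cps1, the first enzyme of the urea cycle and also a hepatocyte marker above, by -1.24 (adjusted p = 2.66e-05). Mt2 and Lcn2, a metallothionein and a lipocalin at 855 and 375 FPKM, had log2 fold changes of -0.31 and -0.29 (adjusted p = 0.0881 and 0.117). Fkbp5, a widely used reporter of the receptor, is added after its value was seen and had a log2 fold change of -0.16 (adjusted p = 0.215).

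Oestrogen receptor α (Esr1, chr10:4561593-4955614) was low and lower still in the libraries labelled STINGLKO. It had 80, 49 and 59 counts in LOXP and 26, 29 and 39 counts in the other group, or 5.05, 3.43 and 3.88 against 1.66, 1.56 and 2.27 CPM. No value of one group reached the other, with a log2 fold change of -1.17 (SE 0.238, adjusted p = 0.00964). At 0.214 ± 0.0461 and 0.0976 ± 0.0216 FPKM (SD, n = 3) it missed the FPKM criterion of the study. The mineralocorticoid receptor Nr3c2, at 0.388 FPKM, had a log2 fold change of -0.30 (SE 0.227, adjusted p = 0.384). Among the oestrogen-related receptors, which control mitochondrial genes, Esrra was the only one above the limit of testing. It had 83.9, 92.6 and 89.1 CPM in LOXP and 75.3, 75.2 and 80.3 CPM in the libraries labelled STINGLKO. These values do not overlap, but the log2 fold change of -0.20 (SE 0.0665, adjusted p = 0.0596) missed the threshold, and it passed without LOXP replicate 1 (adjusted p = 0.0394). Esrra overlaps Trmt112, which was higher by 0.51 (adjusted p = 0.0064).

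Retinoic acid receptors and thyroid hormone receptors bind DNA as partners of RXR. Rara, the most abundant of them at 8.22 FPKM, had 41.1, 43.1 and 49.1 CPM in LOXP and 46.5, 48.5 and 52.7 CPM in the libraries labelled STINGLKO (log2 fold change 0.15, SE 0.0882, adjusted p = 0.274), and Rarg had a log2 fold change of 0.04 (SE 0.121, adjusted p = 0.839). Rarb (chr14:5650540-6038924), which is induced by retinoic acid through its own promoter, had 7.83, 6.92 and 9.81 CPM in LOXP and 5.93, 5.56 and 5.19 CPM in the other group. This was a modest difference without overlap (-0.56, SE 0.163, adjusted p = 0.0398), which lost the call in 11 of 15 alternative settings, with adjusted p up to 0.126 without LOXP replicate 3. Without any one of the other libraries except LOXP replicate 2 its adjusted p was 0.0619 to 0.116. The Rarb locus overlaps Top2b, which took 10761 counts where Rarb took 657 and had a log2 fold change of -0.05 (adjusted p = 0.692).

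Of 10 genes listed as targets of the retinoic acid and vitamin D receptors, 6 were tested, 4 were lower, 0 were higher and 2 did not pass the test (median -0.71), and Rarb is 1 of the 4. Cyp26a1, the retinoic acid hydroxylase, was lower by -1.52 (adjusted p = 5.83e-05), Dhrs3, a retinaldehyde reductase gene, by -1.30 (adjusted p = 0.00138), and Tgm2, a transglutaminase gene at 202 FPKM, by -0.62 (adjusted p = 0.00495). The test of each of the 4 was of that gene alone. Thra and Thrb had log2 fold changes of -0.27 (SE 0.105, adjusted p = 0.0979) and -0.21 (SE 0.0991, adjusted p = 0.162). Of 10 genes listed as thyroid hormone targets, 8 were tested, 2 were lower, 2 were higher and 4 did not pass the test (median 0.04). Fgf21, listed here too, was lower as given above, Me1, the malic enzyme gene at 47.8 FPKM, was higher by 0.20 (adjusted p = 0.0187), and Bcl3, at 27.6 FPKM, had a log2 fold change of 0.03 (adjusted p = 0.928).

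NR4A receptors are ligand-independent immediate early factors that are induced by cAMP, calcium and stress signals. Nr4a2 (NURR1, chr2:56996842-57014015) had 3.09, 2.52 and 2.57 CPM in LOXP and 4.78, 5.23 and 5.95 CPM in the libraries labelled STINGLKO. Its groups were well separated and it had the largest increase of the 33 tested genes, with a log2 fold change of 0.96 (SE 0.178, adjusted p = 0.00632), although at 0.423 ± 0.0541 and 0.846 ± 0.0999 FPKM (SD, n = 3) it was among the rarer receptors. Nr4a1 (NUR77, chr15:101152150-101172676), at 2.38 ± 0.344 and 3.28 ± 0.0688 FPKM, had 7.89, 9.02 and 10.5 CPM against 12.3, 12.7 and 11.9 CPM (0.43, SE 0.129, adjusted p = 0.0454). That call was lost in 9 of 15 alternative settings, among them each removal of a library but LOXP replicate 3, with adjusted p of 0.0881 to 0.131. Nr4a3 (NOR1) was near 0 in both groups, with 5 counts in all.

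The start windows of Nr4a1 and Nr4a2 printed above each hold 4 TGACG cores, and so does that of Nr4a3. Of the 32851 windows, 76 (0.231%) hold 4 or more. The cut of 4 is the number seen in these windows, so this share is not a test of them. Nor were the other windows matched to them for base composition. The part of these cores in the levels of the genes was not tested. Of 18 immediate early genes listed, 16 were tested, 5 were higher, 1 was lower and 10 did not pass the test (median log2 fold change 0.12), and Nr4a1 and Nr4a2 are 2 of the 5. The AP-1 subunit gene Fosl1 was higher by 0.96 (adjusted p = 4.16e-04) and Egr1, a zinc finger factor gene, by 0.51 (adjusted p = 7.61e-04). Jund and Ier3, the most abundant genes of the list at 217 and 125 FPKM, had log2 fold changes of -0.09 and -0.29 (adjusted p = 0.509 and 0.547).

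EAR2 (Nr2f6) and COUP-TFII (Nr2f2) are orphan receptors of the COUP family, which mostly act as repressors. Nr2f6 (chr8:71826767-71834604) was the third most abundant receptor by its mean over all libraries, though Nr1d1 stood slightly above it in LOXP (14.8 FPKM). Nr2f6 stood at 14.7 ± 1.30 FPKM in LOXP and 19.6 ± 2.15 FPKM in the libraries labelled STINGLKO (SD, n = 3). It had 82.8, 101 and 93.8 CPM in LOXP and 106, 126 and 129.5 CPM in the other group, a narrow separation (log2 fold change 0.38, SE 0.101, adjusted p = 0.0288). Removal of LOXP replicate 1 or 3 gave an adjusted p of 0.0707, and removal of replicate 2 or 3 of the libraries labelled STINGLKO 0.101 or 0.0953. In LOXP Hnf4a stood at 34.1 and Nr2f6 at 14.7 FPKM, and in the libraries labelled STINGLKO at 23.2 and 19.6 FPKM, so the levels of these 2 receptors lay closer together there. Nr2f2, at 1.05 FPKM, had a log2 fold change of 0.23 (SE 0.110, adjusted p = 0.167). The testicular receptors Nr2c1 and Nr2c2 and the germ cell nuclear factor gene Nr6a1 had log2 fold changes of -0.15 (SE 0.110, adjusted p = 0.374), -0.19 (SE 0.212, adjusted p = 0.570) and 0.10 (SE 0.112, adjusted p = 0.561). Over the 21 tested receptors that did not pass the test, the largest absolute log2 fold change was 0.63 (Nr1i3) and the smallest adjusted p was 0.0596 (Esrra).

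Receptors act through coactivators and corepressors. Of 26 coregulator genes, all tested, 3 were lower, 4 were higher and 19 did not pass the test, where 23.1% of all genes tested changed. The median log2 fold change of the list was -0.01. It turned to 0.03 when only library size was used for scaling, and the median of all genes tested moved alike, from -0.0021 to 0.033. Carm1, a coactivator arginine methyltransferase, was higher by 0.54 (adjusted p = 0.00183). Gps2, a subunit of the NCoR corepressor complex, was lower by -0.52 (adjusted p = 0.00927), while Tbl1x, another subunit and the most abundant of the list at 32.8 FPKM, had a log2 fold change of -0.03 (adjusted p = 0.759). Trip12, a ubiquitin ligase gene at 13.4 FPKM, had -0.10 (adjusted p = 0.366). Ppargc1a, the coactivator of PPARα, HNF4A and ERRα, is added after its value was seen and was lower by -1.21 (adjusted p = 0.03) from 51, 36 and 58 counts in LOXP to 26, 14 and 30 counts.

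Among 8 mouse receptor genes outside the 41, Esr2, Nr0b1, Nr2e1 and Nr2e3 were at 0 counts in all 6 libraries, and Nr1h5 and Nr5a1 were too low to be tested. The other 2 were tested, and 1 was lower and 1 higher in the libraries labelled STINGLKO.

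**Figure D4:**
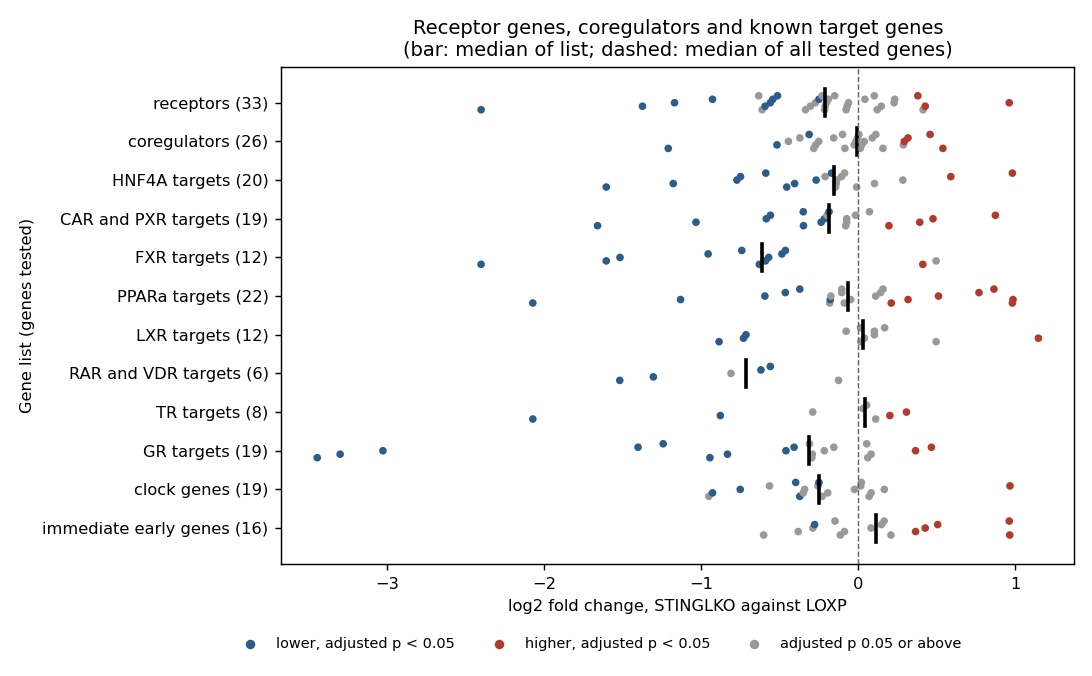
Log2 fold change of each tested gene of 12 lists in the libraries labelled STINGLKO against LOXP, 1 point per gene coloured by the test, with a bar at each list's median and a dashed line at the median of all tested genes. The medians of FXR targets (-0.61) and of retinoic acid and vitamin D receptor targets (-0.71) lie lowest, and those of LXR targets (0.03), thyroid hormone targets (0.04) and coregulators (-0.01) lie near 0. The FXR list pools induced and repressed genes.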

How the data were processed

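RNA of primary hepatocytes was sequenced by the authors as 150 bp paired-end reads from libraries made with the VAHTS Universal V6 kit. Per the labels and the submitters' processing notes, reads were handled with fastp, HISAT2, StringTie and edgeR on GRCm39, without versions. The counting tool, annotation and strand setting are not given in the sources used here. The authors deposited whole-number read counts without normalization and FPKM values, 12 columns in all, each used. The deposited FPKM values follow from the counts, 1 length per gene and the counted reads of the library, checked on 13088 genes (implied lengths differed by at most 0.00873%).

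The count model was edgeR 4.0.16 (R 4.3.3) with filterByExpr (minimum count 10), TMM factors (0.973 to 1.02), the two-sided quasi-likelihood test of 3 against 3 libraries and Benjamini-Hochberg adjustment over 14151 genes. CPM values use TMM-scaled library sizes. Replicates differed by more than counting noise (chi-square per degree of freedom 7.58 to 16.1 over replicate pairs), so no pair was treated as 1 library deposited under 2 names, which does not show that they came from separate mice. The fit was tested on simulated data.

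The receptors, the hand-written target, coregulator and marker lists, and the alternatives were chosen with earlier results of these data known. Named in detail are the changed receptors, the 10 most abundant and the 5 untested ones with most counts, and in other lists the genes meeting the criteria of the study, the 2 with the smallest adjusted p and the 2 most abundant, with additions marked in the text. Alternatives were DESeq2 1.42.0, upper-quartile or library-size scaling, a minimum of 1 count overall or of 10 in each library, edgeR's exact test, a replicate block, limma-trend (limma 3.58.1) on log2(FPKM + 1) and log2(FPKM + 0.1), and each library left out. Plots used matplotlib 3.10.9 (Python 3.11.15). A few genes of the lists are not reported here by name.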

Additional observations from a re-analysis of the deposited data

How the results depend on the processing

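Of the 12 changed receptors, Rora, Hnf4a, Nr1i2, Nr4a2 and Nr1h4 stayed past the threshold under all 15 alternatives, and the other 7 missed it under at least 1: Esr1 under limma-trend on log2(FPKM + 1) (adjusted p = 0.0527), and Nr0b2, Nr5a2, Nr2f6, Nr4a1, Nr1d2 and Rarb when a library was left out, the last 4 also under other settings. None of the 12 reversed. The log2 fold changes of the low genes Nr0b2 and Esr1 were -1.0 and -0.15 on the log2(FPKM + 1) scale, which understates changes of low genes. The 9 lower receptors were 6 to 9 under the alternatives. The 3 higher ones were 1 when every gene with at least 1 count was tested, which changes the fit as well as the adjustment. They were 1 to 3 when a library was left out (1 without LOXP replicate 1 and without replicate 2 or 3 of the libraries labelled STINGLKO). The 2 receptors that met the criteria of the study were 1 with at least 10 counts in every library, which removes Nr0b2, and 1 to 2 when a library was left out (1 without replicate 2 of the libraries labelled STINGLKO).

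Leaving out a library reversed the sign of 3 receptors that had not passed the test: Rarg ranged from -0.0086 to 0.14, Nr2c2 from -0.33 to 0.047 and Nr6a1 from -0.022 to 0.18 in log2 fold change. The cause was not tested. The number of receptors with a mean FPKM above the limit was 30 at 0.5 FPKM, 28 at 1 and 22 at 2.

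With the replicate number as a block, 8 receptors were lower and 3 higher. Nr4a1 and Rarb then missed the threshold (adjusted p = 0.0654 and 0.0663) and Rxrb passed it (0.0425). Deviations of same-numbered libraries correlated at 0.120, 0.0834 and 0.0134, which is not above 0.1 in every pair, and LOXP replicate 3 correlated best with another number. The numbers were therefore not used to pair libraries, and whether they mark a shared day or batch was not tested. Depth limits Nr0b2 and Esr1 among the changed genes and the 8 untested receptors.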
